A study of Rattus norvegicus with 8 samples.

Results

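Glutamate receptors and the proteins that anchor them behind the synapse were read on 8 Affymetrix Rat Genome 230 2.0 arrays of brain tissue from adult male Wistar rats of 250 to 300 g. The set holds 38 genes. Its members are the 71 probe sets, of 31099 on the array, whose platform annotation gives a single gene symbol from that list. A probe set is a group of short probes that reads the 3' part of a transcript, and a gene can have more than 1. The intensities of 52 of these probe sets, from 31 of the genes, lay above the level used for testing, beside 18625 probe sets tested in all.

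The treated group of 4 arrays came from brain tissue injected in the striatum with 5 µl of a baculovirus vector, 50000000 particles. Beforehand the vector had been exposed to ultraviolet light of 254 nm for 1 hour. Baculovirus is an insect virus used to carry genes into mammalian cells, and the labels report that its infectivity had been lost. The control group of 4 arrays came from brain tissue injected in the striatum with 5 µl of phosphate-buffered saline (PBS). Both groups had the same stereotaxic needle injection at 2 sites, and tissue was collected 48 hours later. The labels name the tissue only as brain and give no age, and 1 PBS array has no strain label of its own. The study used 7 rats and injected PBS on the side opposite the virus, and no label says which rat an array came from, so arrays of the 2 groups may share an animal and the p-values measure the spread between these arrays.

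Glutamate is the main excitatory transmitter of the brain, and the projection neurons of the striatum receive it from cortex and thalamus. AMPA, NMDA and kainate receptors are ion channels that glutamate opens, whereas metabotropic receptors act through G proteins. Scaffold proteins of the Dlg, Homer and Shank families hold these receptors in the postsynaptic density, and the kinase CaMKII, abundant there, phosphorylates receptors when calcium enters. Auxiliary subunits known as TARPs carry AMPA receptors to the membrane. In whole tissue, fewer neurons and less transcript per neuron cannot be told apart.

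No glutamate receptor or scaffold probe set differed between inactivated baculovirus and PBS after adjustment for all probe sets tested. In limma, the linear model used for the arrays, 0 of 52 passed a Benjamini-Hochberg adjusted p of 0.05 (background over all tested probe sets 0%), and the smallest adjusted p was 0.686. The methods' t-test also gave 0 of 52 after adjustment. Of the 52 probe sets, 28 had a higher and 24 a lower mean after inactivated baculovirus, and a lower mean was found for 46.3% of all tested probe sets. The median log2 fold change was 0.01 over the 31 genes, each taken by its probe set of highest mean, and 0.02 over all 10539 genes tested. Fold changes here are differences of group means of log2(intensity + 16), baculovirus minus PBS, so changes of dim probe sets are understated.

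The measured differences were small, with a median size of 0.103 on the log2 scale. Their 95% intervals were wider, reaching a median of 0.235 to either side. The lowest log2 fold change of the 52 was -0.26, for a probe set of Homer1, and the highest 0.28, for a probe set of Grin1, and 0 of 52 reached 1.5-fold, a size that 0.129% of all tested probe sets reached. The 95% interval lay inside a 1.5-fold change in either direction for 50 of 52 probe sets, as it did for 95% of all those tested. The exceptions were Cacng8, whose interval ran from -0.08 to 0.59, and Shank3, from -0.12 to 0.61. The spread within groups, a median SD of 0.143 on the log2 scale, was close to the 0.146 of all tested probe sets.

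**Figure D1:**
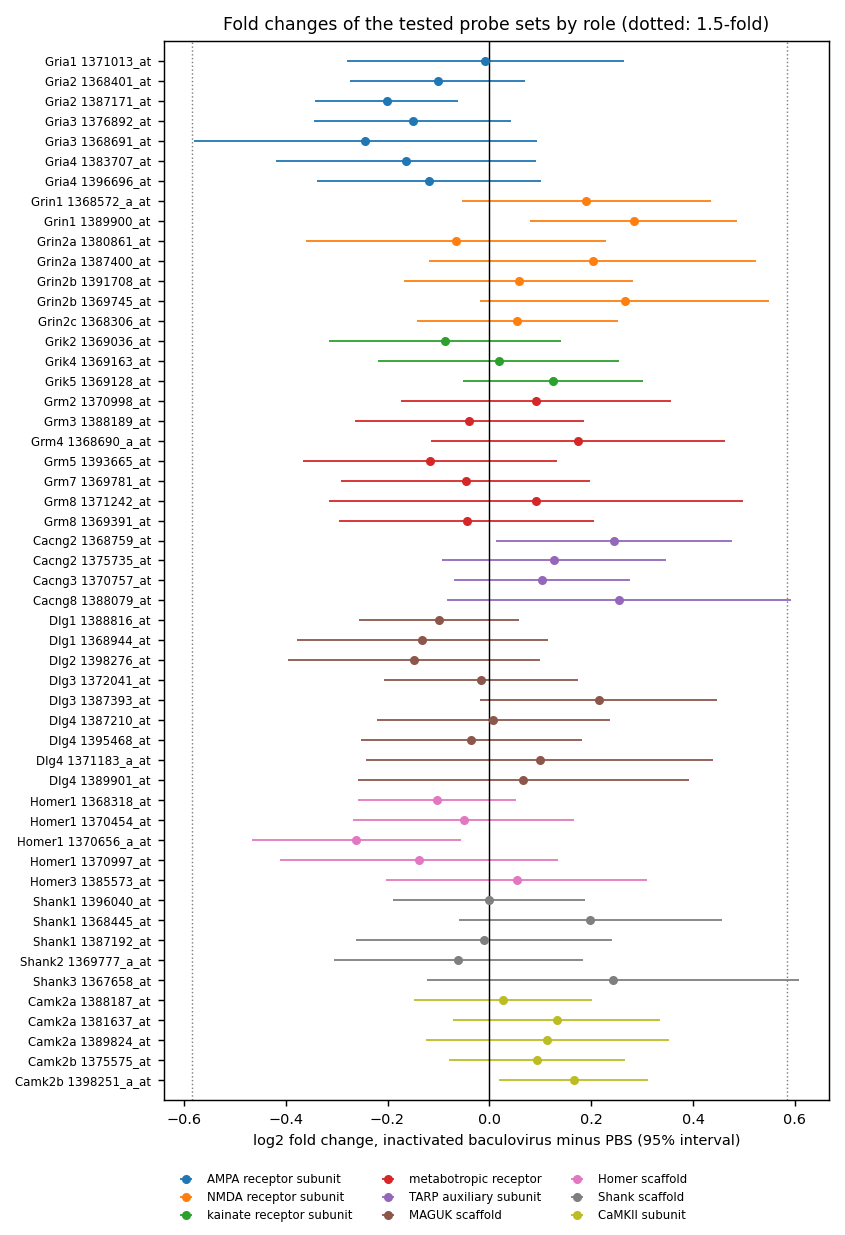
Log2 fold change (x axis, inactivated baculovirus minus PBS) with its 95% limma interval for each of the 52 tested probe sets, listed by gene and probe set and coloured by role; dotted lines mark a 1.5-fold change either way. All 7 AMPA receptor probe sets lie left of 0 and all 4 TARP probe sets and the 5 of Camk2a and Camk2b right of it, and 50 intervals stay between the dotted lines.

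At an unadjusted p under 0.05, 3 of the 52 probe sets were higher and 2 lower, shares of 5.77% and 3.85%. The background was 2.51% higher and 4.22% lower, 468 and 786 of 18625 probe sets. With each array centred on its median, these members became 1 higher and 2 lower, and the background 263 higher and 1085 lower. Arrays of the groups did not overlap for 1 member probe set that was higher and 2 that were lower, where 1.55% of all tested probe sets were apart in the higher and 2.31% in the lower direction. The 3 that did not overlap were probe sets of Grin1, Gria2 and Homer1, and the other 2 under an unadjusted p of 0.05 were probe sets of Cacng2 and Camk2b. Counted by gene, each taken by its probe set of highest mean, 1 of 31 was under that p, 3.23%, against 6.58% of all genes tested. That gene was Cacng2. Counted in the same way, the groups did not overlap for 0 of 31 genes, against 4.17% of all genes tested.

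All 7 tested probe sets of the AMPA receptor subunits had a lower mean after inactivated baculovirus, and none passed. Gria2 encodes the subunit that keeps most AMPA receptors impermeable to calcium. Its probe set 1387171_at read 717, 670, 751 and 681 in intensity on baculovirus replicates 1 to 4 and 775, 842, 829 and 805 on PBS replicates 1 to 4. Every baculovirus array therefore lay below every PBS array. The log2 fold change was -0.20 ± 0.06 (SE, n = 4 each, limma adjusted p = 0.686).

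The other probe set of Gria2, 1368401_at, has the higher mean and stands for the gene. It read 743, 733, 822 and 743 after baculovirus and 723, 846, 924 and 785 after PBS. These groups overlapped, since PBS replicate 1 was the lowest of all 8 arrays, and the log2 fold change was -0.10 ± 0.08 (SE, n = 4 each, limma adjusted p = 0.813). It was -0.16 without PBS replicate 1 and -0.04 without PBS replicate 3.

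Gria3, a subunit that often pairs with Gria2, measured 360 ± 39.8 against 401 ± 33.3 with its brighter probe set (SD, n = 4 each), a log2 fold change of -0.15. Its dimmer probe set stood at -0.24, with an interval of -0.58 to 0.09. Gria4 had log2 fold changes of -0.16 and -0.12 with its 2 tested probe sets. Gria1, the subunit best known for its insertion during synaptic strengthening, read 37.7, 52.6, 50.3 and 66.4 after baculovirus and 52.9, 55.4, 48.1 and 49.2 after PBS. Baculovirus arrays were both the lowest and the highest for Gria1, and its log2 fold change was -0.01 ± 0.13 (SE, n = 4 each, limma adjusted p = 0.996). It turned to 0.10 without baculovirus replicate 1, and it was also above 0 without PBS replicate 1 or 2.

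The TARP auxiliary subunits had the opposite sign, with a higher mean for all 4 tested probe sets and none past the threshold. Cacng2 encodes stargazin, which binds both the AMPA receptor and PSD-95. Its brighter probe set read 217, 244, 283 and 227 after baculovirus and 232, 198, 167 and 214 after PBS. The groups overlapped, because PBS replicate 1 exceeded baculovirus replicates 1 and 4. The log2 fold change was 0.25 ± 0.11 (SE, n = 4 each, limma adjusted p = 0.721), and it was 0.16 without PBS replicate 3. The second probe set of Cacng2 stood at 0.13.

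Cacng8, the TARP known from the hippocampus, read 27.2, 34.7, 44.9 and 34.7 after baculovirus and 20.9, 30.5, 19.1 and 39.6 after PBS. Its groups overlapped over most of their range, and the log2 fold change was 0.25 ± 0.16 (SE, n = 4 each, limma adjusted p = 0.777). Cacng3, a TARP of the forebrain, stood at 0.10, with an interval of -0.07 to 0.28. All 7 AMPA and all 4 TARP probe sets kept their sign when arrays were median-centred or quantile-normalized. Median centring lowered every fold change alike, by too little to turn any of these signs, so it could not test them. With 1 array left out, 6 or 7 of the AMPA probe sets stayed lower and all 4 TARP probe sets stayed higher. Whether the 2 groups of genes differ from each other was not tested.

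**Figure D2:**
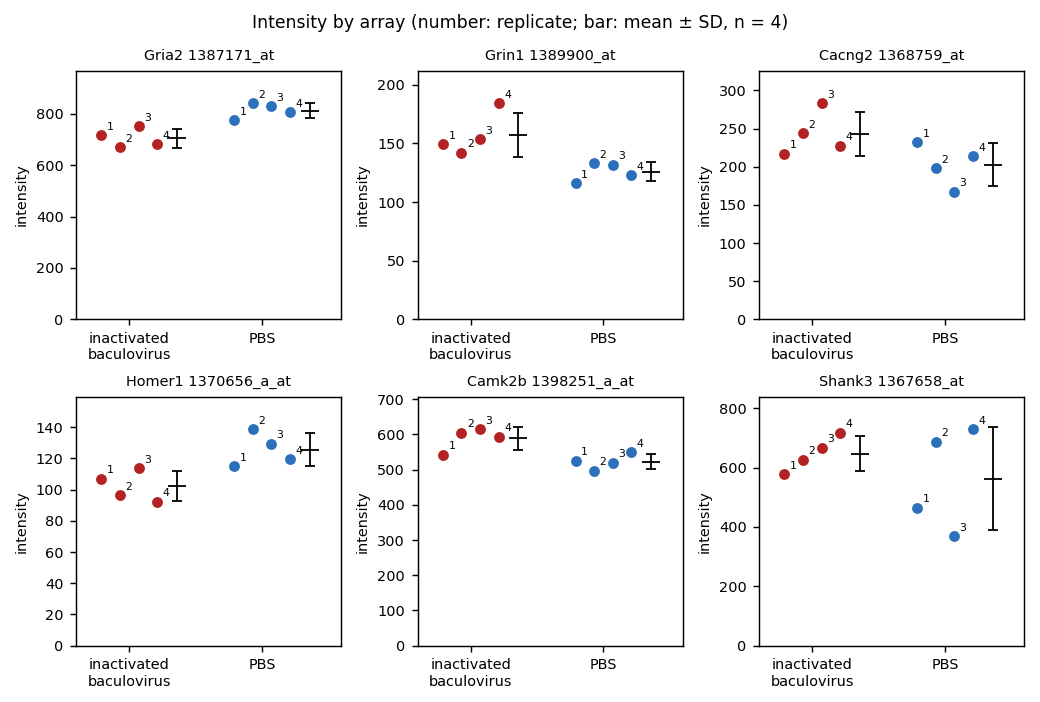
Intensity (y axis, from 0) of 6 probe sets on each array, with the replicate number beside each point and the mean ± SD of 4 arrays at the right. The groups do not overlap for the Gria2, Homer1 and Grin1 probe sets shown, while for Shank3 the PBS arrays run from 370 to 729 around baculovirus arrays of 577 to 718.

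Among NMDA receptor subunits, 6 of 7 tested probe sets lay above 0 and 1 below, and none passed. Grin1 encodes the subunit that every NMDA receptor contains. Its probe set 1389900_at read 149, 142, 154 and 184 after baculovirus and 116, 133, 132 and 123 after PBS. Every baculovirus array lay above every PBS array, with replicate 4 the highest. The log2 fold change was 0.28 ± 0.09 (SE, n = 4 each, limma adjusted p = 0.686).

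The brighter probe set of Grin1, 1368572_a_at, read 468, 497, 527 and 552 after baculovirus and 429, 510, 345 and 519 after PBS. PBS replicates 2 and 4 lay within the baculovirus range and PBS replicate 3 lay far below it. It differed from PBS by a log2 fold change of 0.19 ± 0.11 (SE, n = 4 each, limma adjusted p = 0.772), and it was 0.07 without PBS replicate 3.

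Grin2a and Grin2b encode the glutamate-binding subunits that set how long the NMDA channel stays open. The brighter probe set of Grin2a read 47.6, 54.2, 70.1 and 40.9 after baculovirus and 62.8, 64.03, 47.3 and 49.7 after PBS, so the baculovirus arrays enclosed the PBS arrays. Its log2 fold change was -0.07 ± 0.14 (SE, n = 4 each, limma adjusted p = 0.943), and the dimmer probe set stood at 0.20 with an interval of -0.12 to 0.52.

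Grin2b read 84.1, 102, 104 and 88.3 after baculovirus and 92.7, 92.6, 101 and 75.8 after PBS with its brighter probe set, and its groups overlapped. Its log2 fold change was 0.06 ± 0.10 (SE, n = 4 each, limma adjusted p = 0.931). The dimmer one, 1369745_at, read 47.1, 41.6, 40.3 and 32.0 against 26.6, 32.3, 24.3 and 40.8. There 3 PBS arrays lay at or under 32.3, close to or below the lowest baculovirus array, and PBS replicate 4 lay among the baculovirus arrays, with a log2 fold change of 0.27 (limma adjusted p = 0.742). Grin2c, a subunit best known from the cerebellum, stood at 0.06, with an interval of -0.14 to 0.25.

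Kainate and metabotropic receptors showed no common direction. Grik5, a kainate subunit that works only together with others, measured 193 ± 10.9 against 176 ± 12.2 (SD, n = 4 each), a log2 fold change of 0.12. Grik4, its close relative, stood at 0.02 and Grik2, a channel-forming kainate subunit, at -0.09. Of the 7 tested probe sets of metabotropic receptors, 3 had a higher and 4 a lower mean, between -0.12 and 0.17.

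Grm5, the metabotropic receptor that couples to calcium release and is prominent in striatal neurons, read 33.7, 34.6, 37.2 and 28.3 after baculovirus and 38.2, 29.6, 39.0 and 44.2 after PBS. The lowest array belonged to the baculovirus group and the highest to the PBS group, with overlap between. Its log2 fold change was -0.12 ± 0.12 (SE, n = 4 each, limma adjusted p = 0.859). It was -0.19 without PBS replicate 2, and -0.06 without PBS replicate 4 or baculovirus replicate 4. Grm4, a presynaptic receptor that restrains transmitter release, had the highest value of the metabotropic probe sets, 0.17, and its lowest array was PBS replicate 3 at 54.3, where the other 7 arrays lay between 73.8 and 99.6. Grm8, of the same class, varied most within groups of all 52 tested probe sets (SD 0.36 on the log2 scale), from 64.9 on PBS replicate 1 to 148 on PBS replicate 4.

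The scaffold families held both directions, with 4 probe sets higher and 5 lower for Dlg, 1 and 4 for Homer, and 3 and 2 for Shank. All 4 tested probe sets of Homer1, which links metabotropic receptors to Shank proteins and also makes a short form induced by activity, had a lower mean. Probe set 1370656_a_at read 107, 96.2, 114 and 92.1 after baculovirus and 115, 139, 129 and 119 after PBS. The groups did not overlap, although baculovirus replicate 3 and PBS replicate 1 differed by little. This gave a log2 fold change of -0.26 ± 0.09 (SE, n = 4 each, limma adjusted p = 0.688).

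The brightest probe set of Homer1 read 339, 341, 348 and 346 after baculovirus and 341, 405, 371 and 367 after PBS. The baculovirus arrays were within 10 units of each other, and 3 of the 4 PBS arrays lay above them. It differed from PBS by a log2 fold change of -0.10 ± 0.07 (SE, n = 4 each, limma adjusted p = 0.788), and it was -0.06 without PBS replicate 2. The remaining 2 tested probe sets stood at -0.05 and -0.14. The annotation does not tie these probe sets to the short or long forms. Homer3 stood at 0.05.

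Of the Dlg scaffolds, which bind receptor tails through PDZ domains, Dlg4 encodes PSD-95, the standard marker of the excitatory postsynapse. Its brightest probe set read 311, 370, 392 and 412 after baculovirus and 353, 346, 332 and 448 after PBS. The groups overlapped throughout, with a log2 fold change of 0.01 ± 0.11 (SE, n = 4 each, limma adjusted p = 0.995), which turned to -0.02 with median centring. Dlg1 stood at -0.10 and -0.13 with 2 probe sets and Dlg2 at -0.15. For Dlg3 the probe sets disagreed, at -0.02 and 0.21, and the second of these had 27.8 to 32.7 after baculovirus and 21.0 to 28.2 after PBS, with only PBS replicate 4 overlapping.

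Shank3, a large organiser of the postsynaptic density in striatal neurons, read 577, 626, 667 and 718 after baculovirus and 465, 688, 370 and 729 after PBS. Its PBS arrays fell into a low pair, replicates 1 and 3, and a high pair, replicates 2 and 4, and the baculovirus arrays lay between or within them. This gave a log2 fold change of 0.24 ± 0.17 (SE, n = 4 each, limma adjusted p = 0.788), and it was 0.07 without PBS replicate 3 and 0.38 without PBS replicate 4. The brightest probe set of Shank1 was at 726 ± 50.7 against 728 ± 89.3 (SD, n = 4 each), and that of Shank2 at a log2 fold change of -0.06.

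Camk2a and Camk2b, the CaMKII genes among the members, had a higher mean with each of their 5 tested probe sets, and none passed. Of the other CaMKII genes, taken from the list of further genes, Camk2d had a lower mean and Camk2g had both directions. Camk2d stood at a log2 fold change of -0.23 ± 0.11 (SE, n = 4 each, limma adjusted p = 0.742). Camk2g stood at 0.17 with its brighter tested probe set and at -0.05 with the dimmer one. Camk2b probe set 1398251_a_at read 543, 605, 615 and 593 after baculovirus and 525, 498, 520 and 549 after PBS. Only baculovirus replicate 1, below PBS replicate 4, kept the groups from standing apart. It differed from PBS by a log2 fold change of 0.17 ± 0.07 (SE, n = 4 each, limma adjusted p = 0.717), and 0.09 ± 0.08 with the brighter probe set of Camk2b, at 1159 ± 113 against 1084 ± 80.3 in intensity (SD). The latter fold change was 0.15 without baculovirus replicate 1, 0.04 without baculovirus replicate 4 and 0.06 without PBS replicate 1.

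Camk2a, the alpha subunit of the kinase, read 1006, 1160, 1093 and 1172 after baculovirus and 1087, 1191, 939 and 1141 after PBS with its brightest probe set. The groups overlapped, and the log2 fold change was 0.03 ± 0.08 (SE, n = 4 each, limma adjusted p = 0.966). It was -0.00203 with median centring, the 1 of these 5 probe sets that changed sign there. The other 2 tested probe sets of Camk2a stood at 0.13 and 0.11. Of the 15 genes with several tested probe sets, 10 had a single direction over them. The 5 with both directions were Dlg3, Dlg4, Grin2a, Grm8 and Shank1.

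Without PBS replicate 4 the count of members at an unadjusted p under 0.05 was 10 higher and 2 lower of 52, shares of 19.2% and 3.85%, in place of 3 and 2. All tested probe sets then had 4.71% higher and 5.78% lower, and the smallest adjusted p of a member was 0.407. The probe sets gained were 1 each of Grin2b, Shank1, Cacng8, Grin2a, Shank3 and Dlg3 and the brighter one of Grin1. PBS replicate 4 was the highest of the PBS arrays for 8 of the 10 that were higher without it. That follows in part from finding these by leaving it out. Over all 52 members it was the highest of all arrays for 11, 21.2%, against 10.0% of all tested probe sets. The same array stood apart for choroid plexus genes, markers of the tissue that makes cerebrospinal fluid: the mean of 5 of 9 listed genes was -1.24 there, while the remaining 7 arrays had 0.02 to 0.48, on a log2 scale centred on each gene's mean. Its part in the members' values was not tested. Without PBS replicate 2 the count was 1 higher and 1 lower, 1.92% each, against 3.17% and 3.33% of all tested probe sets. Without baculovirus replicate 2 it was 1 and 2, 1.92% and 3.85%, against 1.41% and 2.41%.

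**Figure D3:**
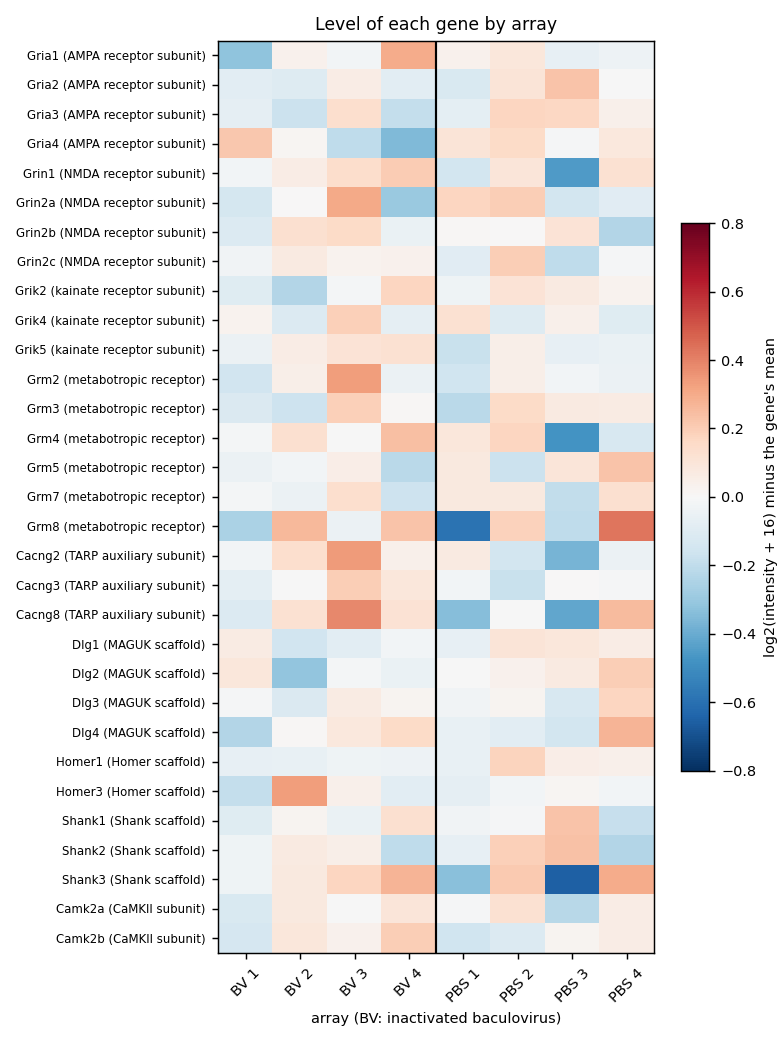
Level of each of the 31 genes (rows, probe set of highest mean) on each array (columns; BV, inactivated baculovirus), as log2(intensity + 16) minus the gene's mean over 8 arrays, blue low and red high. PBS replicate 3 is low for Shank3, Grin1, Grm4, Cacng2 and Cacng8 and high for Gria2, and no column of 1 group is of a single colour.

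Some single arrays were the lowest or highest for a larger share of members than of all tested probe sets. PBS replicate 3 was the lowest of the 8 arrays for 15 of 52 member probe sets, 28.8%, where it was the lowest for 17.8% of all probe sets tested. Baculovirus replicate 3 was the highest for 13 of 52, 25.0%, against 10.5% of all. The mean level over the 31 genes was -0.07, 0.01, 0.09 and 0.02 on baculovirus replicates 1 to 4 and -0.07, 0.06, -0.07 and 0.04 on PBS replicates 1 to 4. Each group thus held arrays on both sides of 0, and the group means were 0.01 and -0.01.

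Marker lists of other cells and regions were set beside these levels. Striatal projection neuron genes, 15 of 16 listed, stood at -0.20, -0.02, -0.14 and 0.19 after baculovirus and -0.21, 0.16, 0.02 and 0.21 after PBS. They were low on baculovirus replicates 1 and 3 and PBS replicate 1. Of these, baculovirus replicate 1 and PBS replicate 1 were also low for the receptor and scaffold genes, whereas baculovirus replicate 3 was the highest array for them. Cortical glutamatergic neuron genes, 10 of 12 listed, were highest on baculovirus replicate 3 at 0.18 and lowest on PBS replicate 4 at -0.12. General neuronal genes, 10 of 10, ran from -0.11 on PBS replicate 3 to 0.09 on PBS replicate 4, and baculovirus replicate 1 had -0.09. Microglial genes, 10 of 10, ran from -0.22 to 0.31 after baculovirus and from -0.31 to 0.20 after PBS. Astrocyte and oligodendrocyte genes, 10 of 10 and 9 of 10, stayed between -0.07 and 0.13 on every array. The part of cell makeup in the members' values was not tested. As a measure of RNA quality and labelling, the signals at the 3' and 5' ends of 2 control transcripts were compared. For beta-actin the 3' signal exceeded the 5' signal by 0.368 to 0.729 log2 units over the 8 arrays. It was 0.464 on PBS replicate 3 and 0.412 on PBS replicate 4. For GAPDH the 3' signal was below the 5' signal on every array, with differences of -0.107 to -0.036 log2 units.

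**Figure D4:**
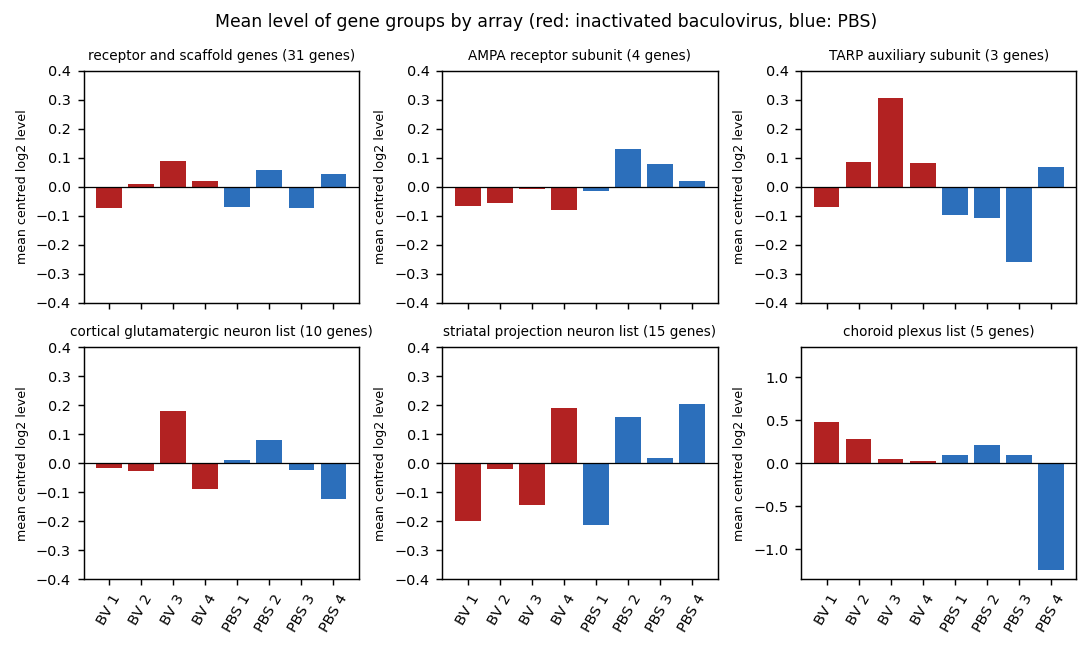
Mean level of 6 gene groups on each array (bars from 0; y axis in log2 units centred on each gene's mean over 8 arrays; the choroid plexus panel has a wider axis). Receptor and scaffold genes lie within 0.09 of 0 on every array, while the choroid plexus genes of PBS replicate 4 reach -1.24.

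Further genes of glutamate signalling, 63 transporters, adaptors, adhesion molecules and enzymes that act with these members, had 42 genes with a tested probe set. Taken by the probe set of highest mean, 24 genes had a higher and 18 a lower mean (42.9% lower, against 44.3% of all genes tested), and 0 passed over all probe sets in limma. At an unadjusted p under 0.05 stood 1 of 42 genes, 2.38%, against 6.58% of all genes tested. Over their 65 tested probe sets the count was 3, all lower, or 4.62%. Of all tested probe sets 6.73% were under that p in either direction, and 4.22% were lower. Those added were dimmer probe sets of Ctnnb1, which encodes beta-catenin, at -0.27, and Dlgap1, a scaffold partner of PSD-95, at -0.23. The 1 gene of 42 was Nlgn1, which encodes the adhesion protein neuroligin of excitatory synapses. It read 126, 104, 113 and 102 after baculovirus and 127, 137, 174 and 119 after PBS. The groups overlapped at baculovirus replicate 1, and the log2 fold change was -0.28 ± 0.11 (SE, n = 4 each, limma adjusted p = 0.714), falling in size to -0.18 without PBS replicate 3. Cttn, which encodes the actin-binding protein cortactin of dendritic spines, followed at 0.15 ± 0.07 and Dnm2, a dynamin of endocytosis, at 0.25 ± 0.12 (log2 fold change ± SE). Their limma adjusted p values were 0.737 and 0.742. For 2 of the 42 genes, 4.76%, the groups did not overlap, against 4.17% of all genes tested. These were Neto1 and Cask, both lower, a direction in which 2.31% of all genes tested were apart. The median log2 fold change of the 42 genes was 0.02, as it was for all genes tested.

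The other 19 member probe sets lay below the level used for testing, with single values between 1.66 and 34.1. They include every probe set of Grin2d, Grin3a, Grik1, Grik3, Grid1, Homer2 and Grip1. Grip1, an adaptor that binds the tails of AMPA receptors, read 5.88 to 22.5 after baculovirus and 7.56 to 12.4 after PBS with 1 of its probe sets. Grin3a, a subunit that lowers the calcium flow of NMDA receptors, read 16.7, 8.10, 2.82 and 6.69 after baculovirus and 10.2, 3.49, 3.70 and 5.15 after PBS. At such levels these probe sets carry no statement about the presence or change of the transcript. With no filter on low values, 4 of 71 member probe sets were higher and 2 lower at an unadjusted p under 0.05, shares of 5.63% and 2.82% against 2.96% and 3.23% of all probe sets, and 0 passed after adjustment in limma.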

How the data were processed

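The authors deposited linear intensities. GCOS is named as the acquisition software in the submitters' processing notes. Those notes and the design text also name GC-RMA, and the labels say that GeneSpring values were not supplied; the sources used here do not say which algorithm produced these intensities, nor which of the labelling kits each array had. Every array had been scaled: with 2% trimmed at each end, the mean was 100.0 on all 8. The number of arrays limits the precision, and detection calls were not used.

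Columns were assigned through the sample names. Controls, 57 probe sets, were left out. Gene names come from the platform annotation, and all 71 members' symbols matched a RefSeq table. Values were turned into log2(intensity + 16) with no further normalization. Tested probe sets were those whose mean log2 value exceeded the 40th percentile, which corresponds to an intensity near 26.0. The two-sided test was limma's moderated test with an intensity-dependent variance prior and no block (limma 3.58.1, run in R 4.3.3). P-values were adjusted by Benjamini-Hochberg over all 18625 probe sets. The scripts were tested on simulated data.

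The members and lists were chosen with earlier results of these data known. Genes named with every array's value were those with a tested probe set at an unadjusted p under 0.05 or with groups apart, a fixed set of 10 (Gria1, Gria2, Grin1, Grin2a, Grin2b, Grm5, Dlg4, Homer1, Shank3 and Camk2a), genes whose probe sets differed in sign by 0.2 or more each (none), and the 3 further genes with the smallest p. Other members are given by range and count, and those named with single values (such as Cacng8, Grin3a, Grm4, Grm8 and second probe sets) were picked after their values were seen. Alternatives were a pseudocount of 1 or of 64, median centring or quantile normalization of the arrays, a filter at the 60th percentile or none, a constant variance prior, array weights, a block for the replicate number, the methods' t-test, averaging each gene's probe sets, and leaving out each array.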

Additional observations from a re-analysis of the deposited data

Results flagged for a closer look

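In 5 of 74 sets of 4 arrays, 1 array lay far from the other 3 by Dixon's ratio, which chance exceeds in about 1 of 20 sets. The brighter probe set of Gria2 was at 822 on baculovirus replicate 3 and between 733 and 743 on the other baculovirus arrays. Baculovirus replicate 1 stood low in 3 levels: the Shank genes at -0.056, against 0.06 to 0.07 on the other baculovirus arrays, the further glutamate signalling genes at -0.041, against 0.02 to 0.03, and the general neuronal genes at -0.094, against 0.0045 to 0.02. For the choroid plexus genes PBS replicate 4 had -1.24, where PBS replicates 1 to 3 had 0.09 to 0.22.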

How the results depend on the processing

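No member passed an adjusted p of 0.05 in any of the 19 alternatives, nor did any probe set or further signalling gene where these were tested; the smallest adjusted p of a named probe set was 0.389. Members at an unadjusted p under 0.05, 5 in all, were 3 with median centring, 3 with the replicate block and between 2 and 12 with 1 array left out. With the block 1 was higher and 2 lower (1.92% and 3.85%), against 2.36% and 3.94% of all tested probe sets; with median centring the same shares of members stood against 1.41% and 5.83%. The block rests on the numbers in the sample titles. Deviations of same-numbered arrays from their group means had correlations of -0.0051, 0.016, 0.0088 and -0.003 for numbers 1 to 4. Whether same-numbered arrays share an animal is not given by the labels, and these correlations cannot decide it. With the filter at the 60th percentile 8 of 21 member genes had a lower mean, in place of 14 of 31, since fewer genes were tested. Of 16 named member probe sets, 11 kept their direction throughout. Dlg4 turned to -0.021 with median centring and -0.011 with array weights, Camk2a to -0.00203 with median centring, and Grin2a to 0.069 with the mean of its probe sets. Median centring lowered every fold change alike. The tested probe sets of Grin2a differ in sign, at -0.07 and 0.20, and their mean is above 0. The cause of the change with array weights was not tested. With 1 array left out, log2 fold changes ran from -0.11 to 0.10 for Gria1, -0.18 to 0.023 for Grin2a, -0.012 to 0.10 for Grin2b, -0.042 to 0.10 for Dlg4 and -0.042 to 0.071 for Camk2a. Signal limits dim members: a change of a probe set below an intensity of 26.0 was not tested.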
